A study of Mus musculus with 2 samples.

Results

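Adhesion G protein-coupled receptors are membrane receptors that join a long extracellular adhesion part to a 7-pass membrane part, and their mouse genes carry symbols that start with Adgr. All genes of the deposited table with such a symbol in the GRCm38 annotation were taken as members, which gave 28 of 55487 gene IDs. Of these, 27 are annotated as protein coding and 1, Adgrd2-ps, as a pseudogene. Membership rests on the symbols alone and uses no measured value. The family itself and the gene lists used below were, however, chosen with earlier results of these data known.

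RNA was sequenced from 2 colony cultures of lineage-negative bone marrow cells from femur, tibia and pelvis of C57BL/6 mice. One culture stably expressed EVI1-WT, the wild-type form of the transcription factor encoded by Mecom, from the retroviral vector pMYs-IG_3xHA-EVI1-WT. The other expressed EVI1+18, the product of an aberrantly spliced transcript, from pMYs-IG_3xHA-EVI1+18. Both cultures shared the 3xHA tag, retroviral overexpression, sorting for the vector's GFP at 3 days, plating of 10000 cells and about 3 weeks in methylcellulose with cytokines (MethoCult M3434). The labels give neither the number nor the sex of the mice. With 1 library for each form, nothing below was checked in a replicate. Intervals cover counting error only and compare the libraries, not the vectors.

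Most receptors of this family are cut during maturation at a site next to the membrane, and the outer fragment stays attached to the 7-pass fragment. When a ligand on a matrix fibre or a neighbouring cell pulls on the outer fragment, a short tethered peptide is exposed and switches on heterotrimeric G proteins, often of the G12/13 class that act on RHOA. In blood cells the best known members are ADGRE1 (F4/80), the classical surface marker of mouse macrophages, ADGRE5 (CD97), found on many leukocytes, and ADGRG1 (GPR56), found on stem cells and reported as a target of EVI1 in leukaemia.

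The libraries held 20480447 and 20981903 counts for EVI1-WT and EVI1+18. In both, genes of mature myeloid cells and of erythroid cells were present beside the labelled progenitor source. The mature neutrophil gene S100a9 stood at 1370 and 471 scaled CPM (CPM after TMM scaling, which divides counts by an adjusted library size). The mast cell gene Cpa3 was at 2409 and 196, and the erythroid gene Hba-a1 at 323 and 3495. Of 13 stem and early progenitor genes 9 were tested, among them Kit at 3.15 and 11.8 scaled CPM, and Hlf, Hoxa9 and Fgd5 had 0 counts in both. Of 6 B cell genes 1 was tested, Cd79b with 65 and 45 counts, and 4 were at 0 in both. RNA came from whole cultures, so fewer cells of a type and less RNA per cell cannot be told apart in any difference below. Mecom, which counts both the vector's and the endogenous transcript as far as their reads map there, was at 180 and 209 scaled CPM.

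Of the 28 members, 8 reached at least 1 scaled CPM in a library, the level from which genes were counted as tested. Another 8 had 1 to 9 counts in a library, and 12 had 0 counts in both. Among all protein-coding genes of the table, 52.6% were tested and 31.0% had 0 counts in both, against 29.6% and 44.4% of the protein-coding members. The tested members were Adgra3, Adgre1, Adgre4, Adgre5, Adgrg1, Adgrg3, Adgrl1 and Adgrl2. Summed over all members, scaled CPM was 908 for EVI1-WT against 663 for EVI1+18, a ratio of 0.730 (95% counting interval 0.714 to 0.746).

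**Figure D1:**
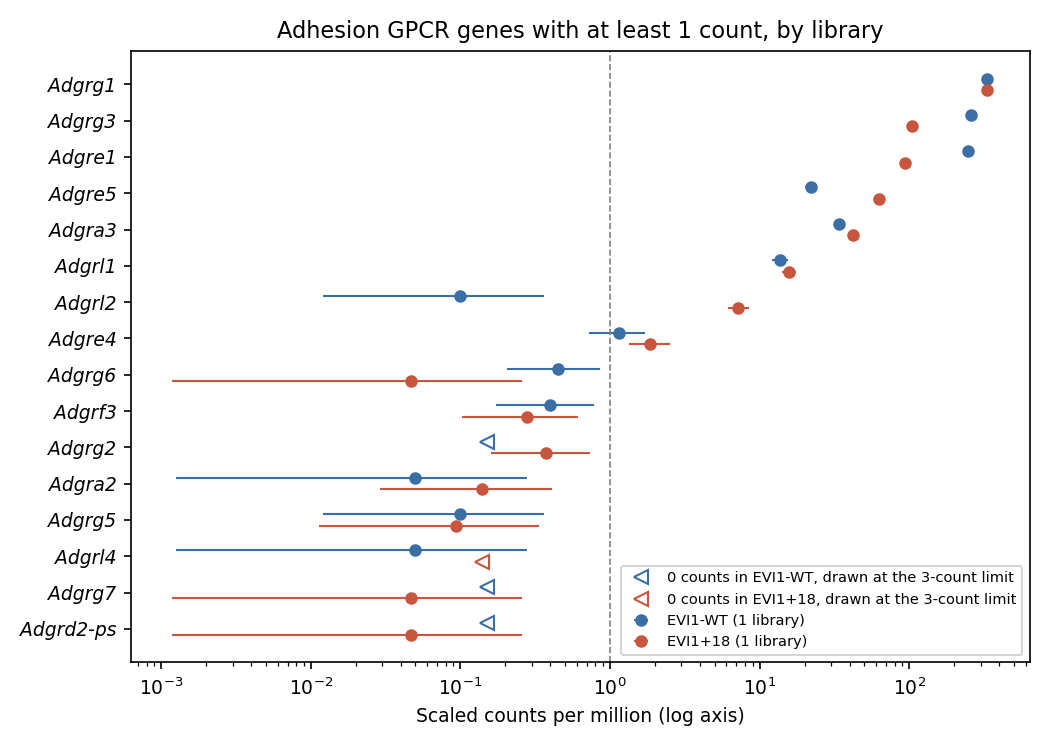
Scaled CPM (log axis) of the 16 members with at least 1 count, in the EVI1-WT library (blue) and the EVI1+18 library (red), with 95% Poisson intervals and the filter at 1 scaled CPM as a dashed line; open triangles are 0 counts, drawn at the 3-count limit. Adgrg1 has the most reads in both libraries, at 329 and 333 scaled CPM, and the members below the filter hold at most 9 counts.

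Between the libraries, 4 of the tested members were at least 2-fold apart beyond counting error, meaning that the whole 95% counting interval of the ratio lay past 2-fold. Adgrl2 and Adgre5 were higher in EVI1+18, and Adgre1 and Adgrg3 were lower. Over all 13183 tested genes, 10.1% were 2-fold apart by this rule, 5.05% higher and 5.10% lower. Of the tested members, 4 were not 2-fold apart: Adgrg1, Adgra3, Adgrl1 and Adgre4. Adgrl2 passed the filter only through EVI1+18, where it was high, so the direction of its difference was fixed by the filter. The median log2 ratio of the tested members was 0.24, beside 0.01 over all tested genes.

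**Figure D2:**
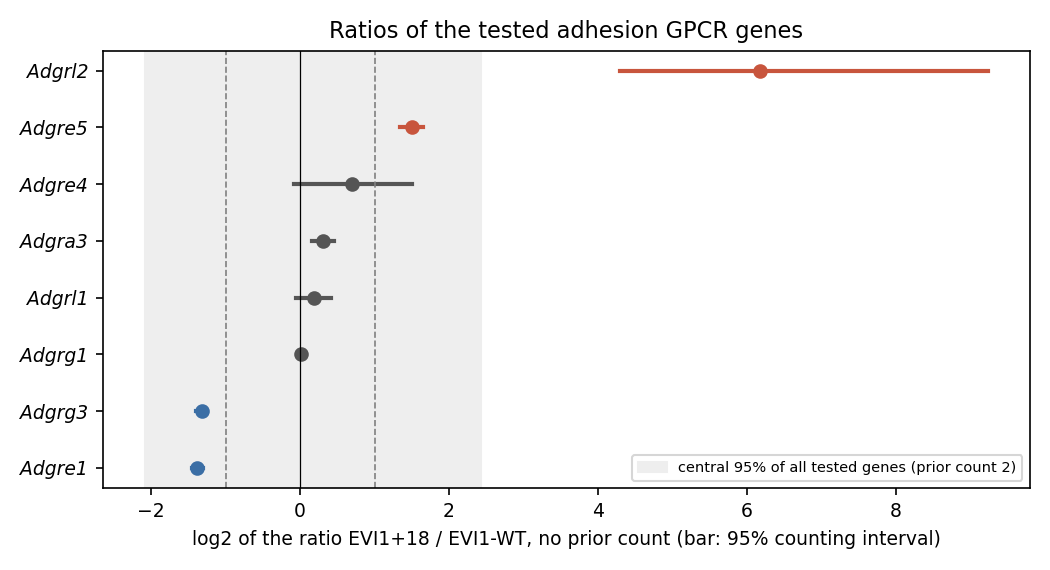
Ratio of EVI1+18 to EVI1-WT for the 8 tested members on a log2 scale without a prior count (points) with 95% counting intervals (bars). Dashed lines mark 2-fold, and the grey band holds the central 95% of all tested genes. Adgrl2 and Adgre5 lie wholly above the upper line, Adgre1 and Adgrg3 wholly below the lower one, and the interval of Adgrg1 spans equality.

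Adgrg1 (ENSMUSG00000031785, GRCm38 chromosome 8, 94974751 to 95014217, plus strand) was the member with the most counts in both libraries. Its product binds collagen III and the crosslinking enzyme transglutaminase 2, and signals mainly through G12/13 to RHOA. The libraries held 6590 counts (EVI1-WT) and 7152 counts (EVI1+18) of it, or 329 and 333 scaled CPM. The libraries lay close together, with a ratio of 1.01 and an interval of 0.980 to 1.05. With libraries scaled by their total counts alone, the ratio was 1.06 (1.02 to 1.10), so whether the interval includes equality depends on the scaling. Per kilobase of exon its level exceeded that of 93.1% of tested genes in EVI1-WT and 93.4% in EVI1+18. Mecom itself was 1.16-fold higher in EVI1+18 (1.11 to 1.21).

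Adgrg3 (ENSMUSG00000060470, chromosome 8, 95017692 to 95045250, plus strand) encodes GPR97, a receptor of granulocytes. It begins 3475 bases past the end of Adgrg1 and is read in the same direction. Its counts were 5225 (EVI1-WT) and 2239 (EVI1+18), or 261 and 104 scaled CPM. EVI1-WT was the higher library, and EVI1+18 was 2.50-fold lower (2.38 to 2.63), a ratio more extreme than all but 5.50% of tested genes in that direction. The intervals of the ratios of Adgrg1 and Adgrg3, which cover counting error only and are narrow at these counts, did not overlap. How often this holds for other pairs of genes was not tested. On the other side, 31471 bases before Adgrg1, Adgrg5 had 2 counts in each library.

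The nearest protein-coding genes on both sides of this trio were not lower in EVI1+18. The one before it, Ccdc102a, had 8 and 46 counts, 5.37-fold more in EVI1+18 (2.51 to 13.2). Drc7, the nearest after it, had 17 and 59 counts, a 3.24-fold ratio whose interval of 1.86 to 5.93 reached below 2. Both passed the filter only through EVI1+18. Adgrg3 was thus the gene of the plotted region with the lowest ratio, although Ccdc102a, Drc7 and Adgrg5 rest on few counts.

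**Figure D3:**
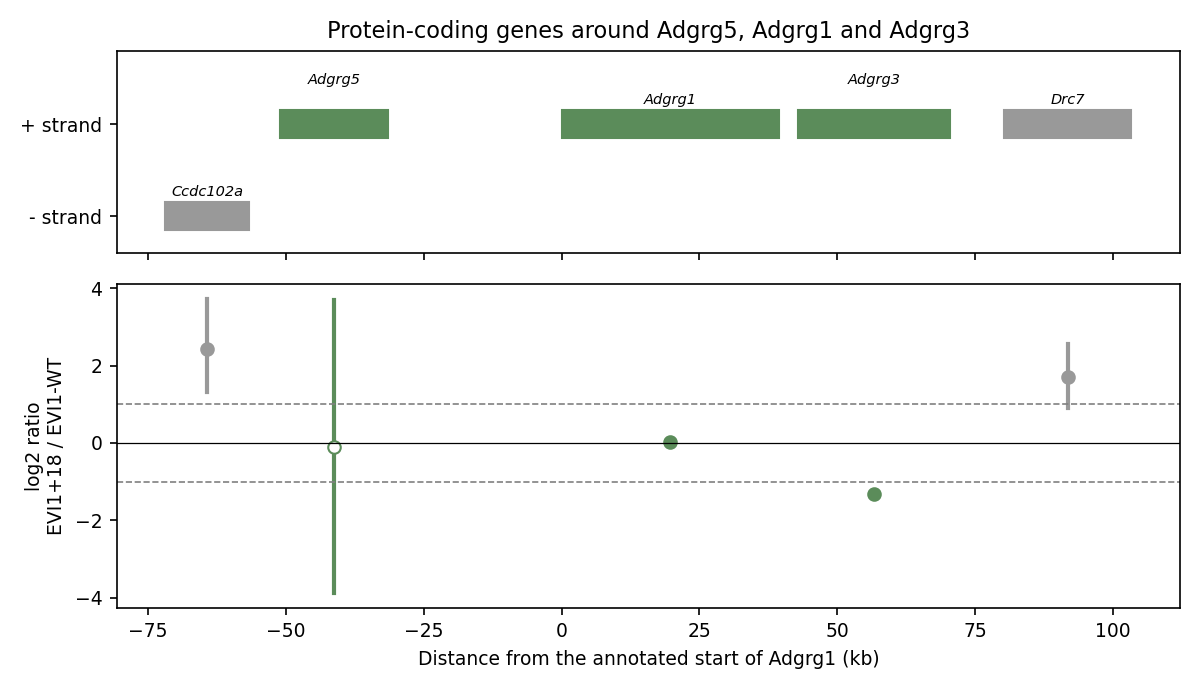
Upper panel: Adgrg5, Adgrg1 and Adgrg3 (green) and the nearest protein-coding genes on both sides, Ccdc102a and Drc7 (grey), by strand, at their distance in kb from the annotated start of Adgrg1. Lower panel: log2 ratio of EVI1+18 to EVI1-WT at each gene's midpoint with its 95% counting interval, open points below the filter and dashed lines at 2-fold. Adgrg1 lies at 0 with a narrow interval and Adgrg3 below the lower line.

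The starts of these neighbours are shown because Adgrg1 is the reported EVI1 target and Adgrg3, next to it, was the one that differed. The stretches come from RefSeq on GRCm38.p6, plus strand, 5′ to 3′. They lie before a RefSeq start of each gene and stop where an exon annotated in GENCODE begins. Adgrg1 has a pair of start windows in the table, both inside the GENCODE gene. Capitals mark CpG dinucleotides.
Adgrg1, first start, chr8:94976859-94976992: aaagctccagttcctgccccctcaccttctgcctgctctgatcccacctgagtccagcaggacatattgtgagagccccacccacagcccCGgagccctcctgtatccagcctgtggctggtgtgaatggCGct
Adgrg1, second start, chr8:94984149-94984370: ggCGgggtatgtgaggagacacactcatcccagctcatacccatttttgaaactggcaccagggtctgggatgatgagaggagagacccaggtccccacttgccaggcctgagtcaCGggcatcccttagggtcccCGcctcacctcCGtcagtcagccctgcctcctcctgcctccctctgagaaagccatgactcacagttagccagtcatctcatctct
Adgrg3, chr8:95017442-95017691: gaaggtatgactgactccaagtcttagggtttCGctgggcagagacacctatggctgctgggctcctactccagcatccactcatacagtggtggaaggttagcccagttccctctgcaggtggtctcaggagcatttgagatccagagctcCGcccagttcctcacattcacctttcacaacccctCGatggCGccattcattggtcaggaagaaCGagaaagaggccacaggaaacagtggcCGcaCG

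The stretches hold 2, 4 and 7 CpG. The full windows of 300 bases (250 before the start and 50 after it) were searched on both strands for 4 motifs. These were ACAAGATAA, from the sequence bound by the first zinc finger domain of EVI1; GAAGATGAG, bound by its second; AGATAA, bound by GATA factors; and CGGAAG, bound by ETS factors. They occur in 0.262%, 0.399%, 11.2% and 16.9% of the 32851 windows in the table. AGATAA lies within ACAAGATAA, so the first motif always counts for the third as well. None of the 4 was found in the windows of Adgrg1 or Adgrg3, which says only that these letters are not there. Of the 28 members, 20 had a window, among them 6 of the tested ones. The windows hold matches for Adgre4, Adgra3, Adgrg7 and Adgrf4.

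Of subfamily E, 1 gene was lower in EVI1+18, 1 was higher and 1 was not 2-fold apart. These receptors carry EGF-like repeats in the outer part and are typical of leukocytes. Adgre1 (ENSMUSG00000004730, chromosome 17, 57358691 to 57483527, plus strand) reached 4917 counts (EVI1-WT) and 2025 counts (EVI1+18), or 246 and 94.4 scaled CPM. The EVI1-WT library was the higher one, and EVI1+18 was 2.60-fold lower (2.47 to 2.74). F4/80 is carried by macrophages and by eosinophils. The marker list of macrophages was mixed, and that of eosinophils was mostly lower in EVI1+18. Among the 9 tested genes of monocytes and macrophages 4 were called higher (2 of them past the filter only in EVI1+18) and 1 was called lower. The list summed to 1768 and 2799.5 scaled CPM, of which Lyz2 gave 967 and 2397. Without Lyz2, the rest of the list was lower in sum in EVI1+18. Ly6c2 stood at 463 and 101 scaled CPM, Cd68 at 241 and 193, Ccr2 at 44.0 and 30.3 and Cd14 at 25.3 and 11.0. Csf1r, Fcgr1, Mertk and Marco had higher levels in EVI1+18. C1qa had 0 counts in both libraries. Of 6 tested eosinophil genes, 5 were lower and 1 higher, with sums of 866 and 176 scaled CPM, and none was at 0 in both. The part of either cell type in the result for Adgre1 was not tested. The nearest protein-coding gene on the left, Vav1, was 1.24-fold lower (1.18 to 1.31), and on the right Vmn2r120 had 0 counts.

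Adgre5 (ENSMUSG00000002885, chromosome 8, 83723251 to 83741326, minus strand) went the other way. Here 444 counts (EVI1-WT) stood against 1344 (EVI1+18), or 22.2 and 62.6 scaled CPM. The EVI1+18 library was the higher one, by 2.83-fold (2.54 to 3.15), and 5.01% of tested genes had a larger ratio. CD97 holds on to CD55, which protects cells from complement, and Cd55 was 1.19-fold higher (1.14 to 1.25), at 146 and 174 scaled CPM. Exons of Adgre5 overlap those of the helicase gene Ddx39 on the opposite strand over 895 of 3757 bases, and 16.5% of its 50-base words occur there. Ddx39 had 3185 and 3335 counts and a ratio of 0.977 (0.931 to 1.03). Without a known strand setting, reads from the overlap cannot be assigned, and their part in the counts of Adgre5 was not tested. Gm10644, the nearest protein-coding gene on the right that is not a member, had 0 and 1 counts.

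Adgre4 (ENSMUSG00000032915, chromosome 17, 55749984 to 55853662, plus strand), a further macrophage receptor of the mouse, was close to the filter. Only 23 and 40 counts fell on it, or 1.15 and 1.86 scaled CPM. The ratio of 1.62 had an interval of 0.949 to 2.84, so the difference was within counting error. Its start window was the one window of a member that held the motif of the first zinc finger domain of EVI1. The match begins 23 bases into the transcript (first base counted as 1), in the first exon, and is shown in capitals for that reason.
Adgre4, chr17:55749996-55750024, plus strand, RefSeq on GRCm38.p6: gaaagagagaACAAGATAAgcagtggtgc
The match is a description of the letters and not of binding.

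Adgrl2 (ENSMUSG00000028184, chromosome 3, 148815583 to 148990555, minus strand) had the widest difference of the family. It encodes latrophilin 2, a receptor whose known partners are the FLRT and teneurin proteins of neighbouring cells. Reads numbered 2 (EVI1-WT) and 155 (EVI1+18), or 0.0999 and 7.22 scaled CPM. The gene was close to undetected in EVI1-WT, and the ratio of 72.3 had an interval of 19.7 to 603. Only 0.288% of tested genes had a larger log2 ratio. This rank follows in part from the filter, which Adgrl2 passed only through EVI1+18. The antisense gene Gm43573, which overlaps 202 exon bases, had 0 and 3 counts. The nearest protein-coding genes that are not members lie far away. Ttll7 had 29 and 68 counts (ratio 2.19, interval 1.40 to 3.51) and Ifi44 had 0 in both.

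The start region of Adgrl2 is shown because this gene was the one member that went from 2 counts to a level above the filter. The stretch is from RefSeq on GRCm38.p6, minus strand, before a RefSeq start that lies inside the GENCODE gene and up to the next annotated exon, with its single CpG in capitals. None of the 4 motifs was found in its window.
Adgrl2, chr3:148954788-148954885: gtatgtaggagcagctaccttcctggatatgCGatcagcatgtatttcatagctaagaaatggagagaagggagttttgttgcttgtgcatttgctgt

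The other latrophilins did not share this pattern. Adgrl1 (latrophilin 1, best known from synapses; ENSMUSG00000013033, chromosome 8, 83900105 to 83941954) had 276 and 336 counts, or 13.8 and 15.7 scaled CPM. Its ratio of 1.14 had an interval of 0.966 to 1.34, which includes equality. Adgrl4, known from blood vessels, had 1 and 0 counts, and Adgrl3 had 0 in both. Adgrl1 starts 158779 bases past Adgre5 on the same chromosome, and the intervals of their ratios, which cover counting error only, did not overlap. Whether this is common among other pairs of genes was not tested.

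Adgra3 (ENSMUSG00000029090, chromosome 5, 49959956 to 50059006, minus strand), an orphan receptor with immunoglobulin and leucine-rich repeats, had 684 and 906 counts. This is 34.2 and 42.2 scaled CPM, a ratio of 1.24 (1.12 to 1.37), above equality but not 2-fold. Its relatives were at the limit of detection. Adgra2, a partner of RECK in WNT7 signalling, had 1 and 3 counts, and Adgra1 had 0 in both.

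Of the 8 members with counts below the filter, Adgrg6, which acts in the myelination of peripheral nerves, had 9 and 1 counts. Its ratio corresponds to a 9.64-fold lower level with an interval of 1.34 to 423. Adgrg2, known from the epididymis, had 0 and 8 counts, and the interval of its ratio began at 1.59. Adgrf3 had 8 and 6 counts, Adgrg5 2 and 2, Adgrg7 0 and 1, and Adgrd2-ps 0 and 1. Adgra2 and Adgrl4 are given above. At this depth none of these can be read as a change in the cultures.

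The members with 0 counts in both libraries were Adgra1, Adgrb1, Adgrb2, Adgrb3, Adgrd1, Adgrf1, Adgrf2, Adgrf4, Adgrf5, Adgrg4, Adgrl3 and Adgrv1. With the limit for a count of 0 set at 3 counts, levels up to 0.150 (EVI1-WT) and 0.140 scaled CPM (EVI1+18) could have gone unseen. They include all 3 receptors of subfamily B, the brain-specific angiogenesis inhibitors, of which ADGRB1 is also a receptor for apoptotic cells. Of the 5 members of subfamily F, 4 were at 0, and all 4 of these lie on chromosome 17. ADGRV1, the very large receptor of hair cells in the inner ear, belongs here too.

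Levels of different genes were compared per kilobase of exon. In EVI1-WT, Adgre1 stood at 75.8 scaled CPM per kilobase, Adgrg1 at 60.7 and Adgrg3 at 37.8. Adgre5 followed at 5.90, Adgra3 at 4.21, Adgrl1 at 1.60, Adgre4 at 0.329 and Adgrl2 at 0.00703. The first 3 of these made up 93.4% of the family's summed level per kilobase. In EVI1+18 the order was Adgrg1 at 61.5, Adgre1 at 29.1, Adgre5 at 16.7, Adgrg3 at 15.1, Adgra3 at 5.20, Adgrl1 at 1.82, Adgre4 at 0.534 and Adgrl2 at 0.509. The share of Adgrg1, Adgrg3 and Adgre1 was 80.9% there. Adgre1 was 12.8 times as high as Adgre5 in EVI1-WT and 1.75 times as high in EVI1+18.

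The order at the top depends on which length is used. With the longest transcript in place of all exons, EVI1-WT had Adgrg1 at 91.0 scaled CPM per kilobase, Adgrg3 at 86.0 and Adgre1 at 75.8. EVI1+18 then had Adgrg1 at 92.2, Adgrg3 at 34.4, Adgre1 at 29.1 and Adgre5 at 20.9. In both versions Adgrg1 led in EVI1+18, and Adgrg1, Adgrg3 and Adgre1 took the first 3 places in EVI1-WT. Adgre4 and Adgrl2, next to each other in EVI1+18, rest on 40 and 155 counts and also changed order. So did Adgre5 and Adgra3 in EVI1-WT, at 7.39 and 7.62 with the longest transcript.

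**Figure D4:**
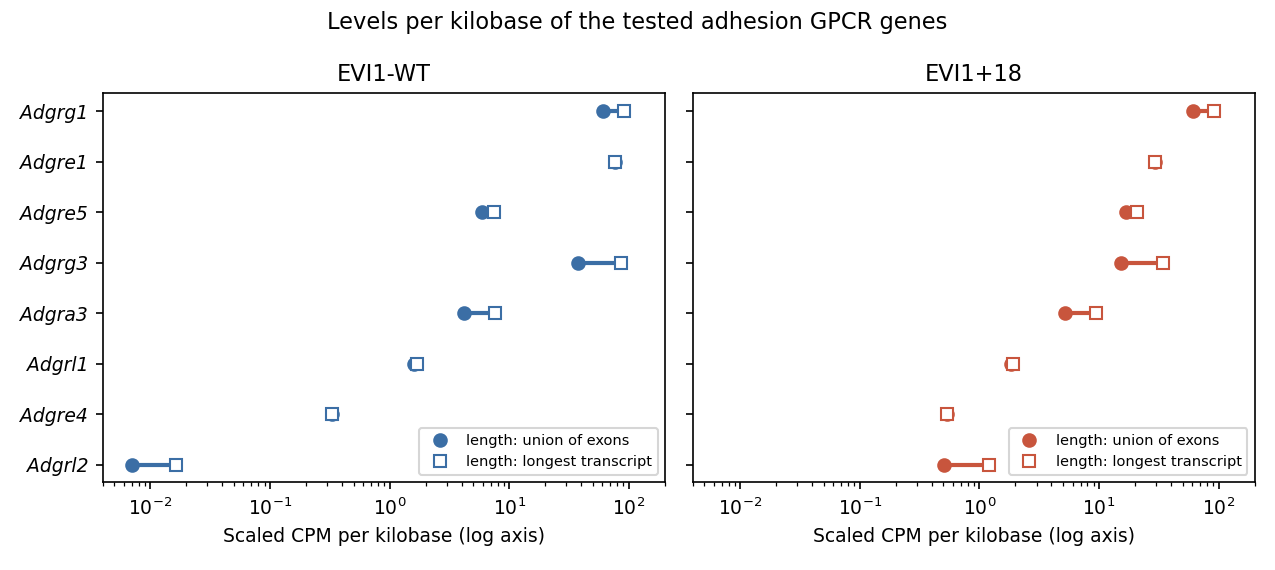
Scaled CPM per kilobase (log axis) of the 8 tested members in EVI1-WT (left) and EVI1+18 (right), with gene length taken as all exons (filled) or as the longest transcript (open squares). The length used moves Adgrg3 from 37.8 to 86.0 in EVI1-WT and leaves Adgre1 in place.

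In raw counts, Adgrg1 took 36.2% of the family's reads in EVI1-WT (95% exact binomial interval 35.5 to 36.9) and 50.3% in EVI1+18 (49.5 to 51.1). The share of Adgre5 was 2.44% (2.22 to 2.68) and 9.45% (8.98 to 9.94). Those of Adgre1 and Adgrg3 were 27.0% and 28.7% in EVI1-WT, and 14.2% and 15.7% in EVI1+18. Adgrg1 thus took a larger share in EVI1+18 at a similar level of its own.

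Marker lists of other cells moved between the same libraries. Of 9 tested genes of mature neutrophils, which carry GPR97, 6 were called lower and 0 higher, and the list summed to 2894 and 969 scaled CPM. Of 10 tested mast cell and basophil genes, 7 were lower and 1 higher, with sums of 5616 and 834 and with Mrgprb2 at 0 in both. In the direction of Adgre5 and Adgrl2, 13 of 15 tested erythroid genes and 7 of 9 tested megakaryocyte and platelet genes were higher and 0 lower, with sums of 1796 and 13772 for the first list and 574 and 1479 for the second. Of 9 stem and progenitor genes, 5 were higher and 1 lower, with sums of 148 and 207. Of 6 tested dendritic cell genes, 4 were higher and 0 lower, with sums of 125 and 234. Of the called genes, 3 in each of the erythroid, megakaryocyte and stem cell lists and 1 in the dendritic cell list passed the filter only through EVI1+18. Of 4 tested natural killer and T cell genes, 2 were lower and 0 higher, with sums of 7854 and 1549, nearly all of it Gzmb, and Ncr1, Tbx21, Cd8a and Cd4 were at 0 in both. Of 10 endothelial and stromal genes 2 were tested: Pecam1, which blood cells also carry, at 427 and 268 scaled CPM and not 2-fold apart, and Pdgfrb, lower with 80 and 19 counts and past the filter only in EVI1-WT. The list summed to 432 and 269, and its defining endothelial genes Cdh5, Kdr and Tek had at most 2 counts in a library. The part of these cell types in the results for Adgrg3, Adgre5 and Adgrl2 was not tested.

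The 3 genes of subfamily C, which belong to the family but are named Celsr, were all tested. None was 2-fold apart by the rule, beside 10.1% of all tested genes. Celsr1, a planar polarity receptor, had 905 and 818 counts and was 1.19-fold lower in EVI1+18 (1.08 to 1.30). Celsr3 had 300 and 145 counts and was 2.22-fold lower with an interval of 1.81 to 2.72. Celsr2 had 30 and 15 counts, 2.14-fold lower (1.12 to 4.29). Celsr2 is the median of these genes, whereas the median log2 ratio over all tested genes was 0.01.

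Among 33 reported ligands and surface partners of these receptors, 17 were tested. The rule called 2 of them higher and 4 lower and left 11 in neither class (median log2 ratio -0.14), so 35.3% of these were called beside 10.1% of all tested genes. Of the called genes, Flrt3 passed the filter only through EVI1-WT and Ptk7 only through EVI1+18, so their calls follow in part from the filter. Tgm2, which encodes the ADGRG1 partner transglutaminase 2, had 4889 and 514 counts. It stood at 244 and 24.0 scaled CPM, which is 10.2-fold lower in EVI1+18 (9.30 to 11.2), beside the ratio of 1.01 for its receptor. Col3a1, the gene of the ADGRG1 ligand collagen III, had 2 and 3 counts. The tetraspanins Cd9 and Cd81, which associate with ADGRG1, were 1.10-fold lower (1.06 to 1.14) and 1.81-fold higher (1.57 to 2.08).

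Thy1, a ligand of CD97, had 5935 and 2391 counts and was 2.66-fold lower in EVI1+18 (2.54 to 2.79), while the receptor gene Adgre5 was higher. The integrin chain Itgb3, also a platelet gene, was 2.88-fold higher (2.77 to 3.00), at 163 and 470 scaled CPM. The beta 1 chain Itgb1 had a ratio of 0.988 (0.954 to 1.02). Of the latrophilin partners, Flrt3 had 92 and 15 counts and was 6.57-fold lower (3.78 to 12.2), whereas Flrt2, with 62 and 139 counts, was 2.09-fold higher with an interval of 1.54 to 2.87. Tenm1, Tenm2, Tenm3 and Tenm4 had 0 counts in both libraries. Rtn4r, the Nogo receptor, was 3.31-fold lower (2.59 to 4.28). Ptk7, which binds ADGRD1, had 2 and 35 counts, a 16.3-fold ratio (4.20 to 140), while Adgrd1 was at 0.

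Downstream of the receptors act heterotrimeric G proteins and their effectors. Of 16 G protein alpha subunit genes 12 were tested, and none of these was 2-fold apart by the rule, beside 10.1% of all tested genes, with a median log2 ratio of 0.13. The G12/13 genes Gna12 and Gna13 had ratios of 1.13 (1.04 to 1.22) and 0.861 (0.812 to 0.913). The subunit gene with the most reads, Gnai2, was at 689 and 616 scaled CPM. Gnai3, another inhibitory subunit, and Gna15, typical of blood cells, had ratios of 0.809 (0.773 to 0.847) and 1.14 (1.08 to 1.21).

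Of 24 downstream effectors (small GTPases, their exchange factors, arrestins and other signalling genes), the rule called 2 higher and 0 lower (median log2 ratio -0.15), or 8.33% of the list, near the 10.1% of all tested genes. The exchange factor Arhgef12, which links G12/13 to RHOA, had 11 and 88 counts and was 7.47-fold higher (3.98 to 15.5), having passed the filter only through EVI1+18. Its relative Arhgef1, with 6544 and 5693 counts, was 1.23-fold lower (1.19 to 1.28). Dock1, the RAC exchange factor that acts with ELMO1 below ADGRB1, was 3.51-fold higher (2.87 to 4.32). Elmo1 was 2.07-fold lower with an interval of 1.93 to 2.21, short of the rule, and Adgrb1 itself had 0 counts. The GTPase genes Rac2, Cdc42 and Rhoa had ratios of 0.983 (0.957 to 1.01), 0.987 (0.958 to 1.02) and 1.15 (1.11 to 1.19).

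**Figure D5:**
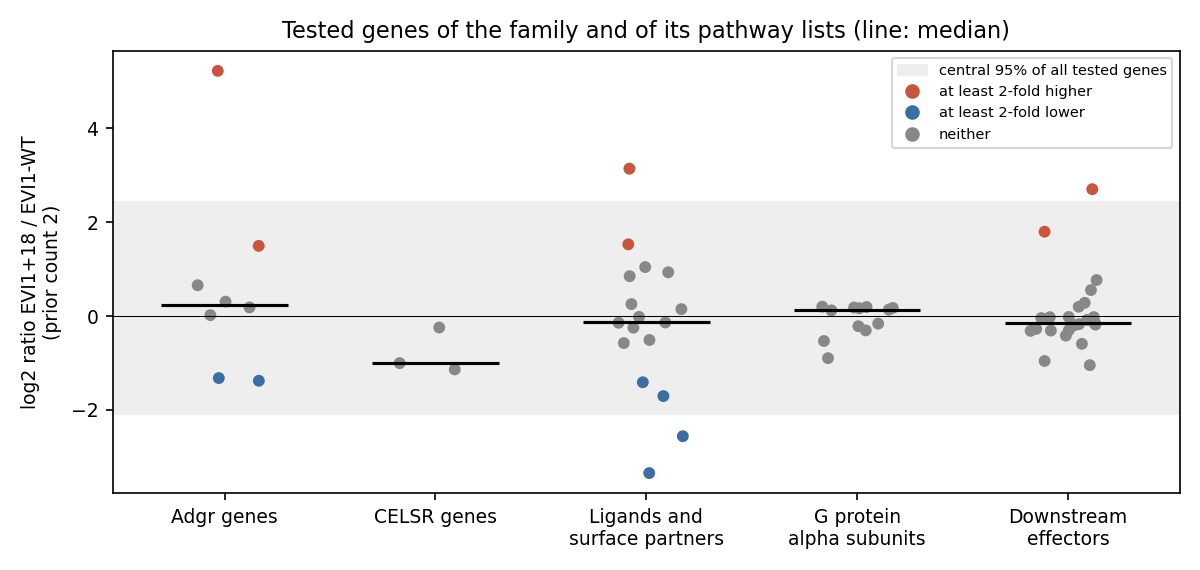
Log2 ratio of EVI1+18 to EVI1-WT (prior count 2) of each tested gene of the Adgr family, the CELSR genes, the ligands and surface partners, the G protein alpha subunits and the downstream effectors. Horizontal lines are medians, and the grey band holds the central 95% of all tested genes. Coloured genes are those whose whole 95% counting interval lay past 2-fold. No G protein alpha subunit is coloured, and Tgm2 is the lowest point, at -3.34.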

How the data were processed

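The values are counts of reads per Ensembl gene, which the authors deposited without normalization, 1 column per library. The tools named are featureCounts and Subread, edgeR, SAMtools and the aligner HISAT2 2.2.1, with the build GRCm38, per the submitters' processing notes. Not given in the sources used here are how strand and multiply mapped reads were treated and which annotation was counted. All sample columns were mapped by their names (0 left over). Of 55487 gene IDs, 55141 matched GENCODE release M21 (GRCm38), which gave symbols, coordinates and exon lengths.

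With 1 library per group no test with replicates is possible. Libraries were scaled with edgeR 4.0.16 (TMM, R 4.3.3). For each ratio scipy 1.17.1 gave the 95% Clopper-Pearson (exact) interval, and calls needed at least 1 scaled CPM in a library. Log2 ratios used a prior count of 2. No molecular identifiers are mentioned, so reads may not be independent molecules. Simulated counts with counting error only were used to check the code for the calls, which says nothing about variation between cultures. Every Adgr gene is named, of the pathway lists all genes called 2-fold apart and up to 3 with the highest scaled CPM, and the nearest neighbours of called members. Some results under this rule are not reported here. A few other list members and neighbours were named after their values were seen. The gene family, and so its members, and the lists were chosen with earlier results of these data known.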

Additional observations from a re-analysis of the deposited data

How the results depend on the processing

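The alternatives were DESeq2 1.42.0 size factors, upper quartile factors or total counts for scaling, no filter or 5 scaled CPM, a 99% interval or the point ratio for the call, prior counts of 0.5 and 5, and the longest transcript as length. The same 4 members were called in the same directions under each scaling, filter and call rule. Over all tested genes the count was 1338, and 2142 by the point ratio. It was 1515 with no filter and 899 with the filter at 5 scaled CPM, which tests fewer genes. Of the partner and effector lists 8 genes were called, 5 with the filter at 5 scaled CPM and 12 by the point ratio. Of 40 recomputed log2 ratios of members 39 moved by less than their counting interval. The exception was Adgrg1, at 0.02 and at 0.08 with total counts. The log2 ratio of Adgrl2 rests on 2 counts in EVI1-WT and was 5.22, with 5.87 and 4.45 at the other prior counts. Of 16 levels per kilobase 9 moved further than their counting error with the longest transcript. No paired analysis was possible because each group has 1 library and the labels carry no replicate number. Depth limits the members below the filter and Adgre4.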

Other observations

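The start windows of the members differed in CpG content, which belongs to no comparison above. The windows of Adgra3 and Adgrl1, both expressed and not 2-fold apart, held 34 and 28 CpG dinucleotides in 300 bases, more than 92.3% and 85.8% of all windows in the table. The windows of Adgrg1 (7 and 6), Adgrg3 (7), Adgrl2 (4) and Adgre4 (2) lay at or below the median of 7. Adgrb2, with 45, and Adgrg6, with 38, were CpG-rich although Adgrb2 had 0 counts in both libraries and Adgrg6 at most 9.

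No Adgr gene shared a 50-base word with another member among the 8 tested ones. The words shared with other genes made up 9.97% of those of Adgrl1, all with genes that overlap it on the opposite strand and had at most 1 count, 1.02% of those of Adgrl2 and 0.128% of those of Adgrg3.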
